A study of Rattus norvegicus with 8 samples.

Results

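The genes described here are those of the class II major histocompatibility complex (MHC), called RT1 in the rat, together with the invariant chain gene Cd74 and the transactivator gene Ciita. They were taken as the probe sets for which the array's annotation gives a single gene symbol and that symbol is Cd74, Ciita, RT1-Da, RT1-Db1, RT1-Ba, RT1-Bb, RT1-DMa, RT1-DMb or RT1-DOa. The rule found 14 of the 31099 probe sets on the array, for 8 of the 9 genes. RT1-DOa, a chain of the class II-like protein that holds back peptide exchange, has no probe set of its own by this rule and was not analysed here. Of the 14 probe sets, 12 were bright enough to be tested, and each of the 8 genes had at least 1 of them.

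Levels were measured on 8 Affymetrix Rat Genome 230 2.0 arrays, each with brain RNA of an adult male Wistar rat weighing between 250 and 300 g, taken 48 hours after an injection into the striatum. For 4 arrays the injection was 5 µl holding 50000000 particles of baculovirus, an insect virus used as a gene vector, inactivated by 1 hour of ultraviolet light at 254 nm. For the other 4 it was 5 µl of phosphate-buffered saline (PBS), so both groups carry the wound of the needle, and no tissue without an injection was analysed here. Per the study's design text, 7 rats were used, fewer than the 8 arrays, so by that text some arrays share an animal. PBS went into the side opposite the vector, so PBS tissue may come from a rat that also received the vector. No label says which rat an array came from, and the main fit treated the arrays as independent, so p-values speak only of the spread between these 8 arrays. The values are linear intensities, given as deposited, and fold changes are on the scale of log2(intensity + 16), where the change of a dim probe set is understated.

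Class II molecules carry peptides from material that a cell has taken up to its surface and show them to helper T cells. Each is a pair of an alpha and a beta chain, assembled around the invariant chain, which fills the peptide groove until proteases of the endosome degrade it and the DM protein exchanges the last fragment for a peptide. In the brain class II is low at rest and is found mainly on macrophages of the borders and on activated microglia. The classical class II genes are among the most polymorphic of the genome and Wistar rats are an outbred stock, so a probe set designed on 1 allele need not read all alleles alike. Transcription depends on Ciita, a co-activator that docks on proteins bound to a pair of elements before the gene's start, the X box and the Y box.

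The windows around the starts of 5 genes are shown because each holds a core of the Y box, and 3 of them a core of the X box as well. The RefSeq table, build GRCr8, held windows from 250 bases before to 50 bases after the start for 7 of the 9 genes. In the sequences, read 5′ to 3′ along the gene, capitals mark the letters GCAACNG, a core of the X box, and TGATTGG, a core of the Y box. Both were searched on both strands, their letters do not overlap, and the letters were chosen with the sequences in view.
RT1-Da, chr20:4515165-4515464, plus strand: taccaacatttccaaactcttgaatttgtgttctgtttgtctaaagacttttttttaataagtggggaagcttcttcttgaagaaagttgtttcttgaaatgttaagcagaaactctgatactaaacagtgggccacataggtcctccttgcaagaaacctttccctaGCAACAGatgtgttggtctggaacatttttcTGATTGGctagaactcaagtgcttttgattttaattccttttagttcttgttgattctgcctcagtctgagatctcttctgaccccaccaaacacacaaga
RT1-Db1, chr20:4560113-4560412, minus strand: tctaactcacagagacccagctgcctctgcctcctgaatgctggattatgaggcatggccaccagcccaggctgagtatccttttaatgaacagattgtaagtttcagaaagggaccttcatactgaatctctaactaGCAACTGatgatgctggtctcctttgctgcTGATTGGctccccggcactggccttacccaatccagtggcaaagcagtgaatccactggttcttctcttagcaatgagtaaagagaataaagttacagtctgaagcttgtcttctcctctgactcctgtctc
RT1-Ba, chr20:4576807-4577106, plus strand: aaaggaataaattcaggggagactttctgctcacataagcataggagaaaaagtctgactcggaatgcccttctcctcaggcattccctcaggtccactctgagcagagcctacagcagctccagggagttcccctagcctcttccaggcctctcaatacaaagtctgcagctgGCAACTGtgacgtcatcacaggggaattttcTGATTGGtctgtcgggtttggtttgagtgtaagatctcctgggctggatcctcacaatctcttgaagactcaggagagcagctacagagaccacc
RT1-Bb, chr20:4604069-4604368, minus strand: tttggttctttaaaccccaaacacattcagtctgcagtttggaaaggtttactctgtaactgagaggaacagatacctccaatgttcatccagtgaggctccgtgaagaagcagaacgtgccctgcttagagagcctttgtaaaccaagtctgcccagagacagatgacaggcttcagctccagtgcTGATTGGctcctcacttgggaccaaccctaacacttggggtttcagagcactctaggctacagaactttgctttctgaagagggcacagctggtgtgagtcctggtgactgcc
RT1-DMa, chr20:4712286-4712585, minus strand: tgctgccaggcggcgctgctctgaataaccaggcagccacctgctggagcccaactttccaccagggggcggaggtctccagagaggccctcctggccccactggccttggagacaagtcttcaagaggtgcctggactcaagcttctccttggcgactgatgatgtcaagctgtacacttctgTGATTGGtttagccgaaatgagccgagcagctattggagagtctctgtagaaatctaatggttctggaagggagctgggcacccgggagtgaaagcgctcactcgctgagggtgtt
The Y box core was found in 6 of the 7 windows, those above and that of RT1-DOa, against 7.06% of the 33469 windows of the same length in the table. The X box core was found in 3 of the 7, against 12.2% of all windows. In RT1-Da, RT1-Db1 and RT1-Ba it stood 24, 23 and 24 bases before the Y box core. A window with the X box core 10 to 30 bases before the Y box core was rare, 0.0598% of all (20 windows), and RT1-Db2, RT1-DOb and RT1-Ha, further class II genes that are no members here, were among these. As the letters were chosen with these sequences in view, a higher share among the members is no independent support. A match describes the letters only, and the window of Cd74 held neither core in these letters.

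After inactivated baculovirus 13 of the 14 class II probe sets had a higher mean and the other a lower one, and none of the 12 tested passed an adjusted p of 0.05 in limma, where 0.00% of all 18625 tested probe sets passed. A higher mean was also seen in 56.1% of all 31042 probe sets other than controls. Among those tested it was 11 of the 12 members and 53.7% of all. The median log2 fold change was 0.24 over the 14 probe sets and 0.018 over all 31042. At an unadjusted p under 0.05 in limma stood 1 of the 12, a higher one, against 6.72% of all tested in either direction and 2.50% higher. The median depended on single arrays: it was 0.12 without baculovirus replicate 1, 0.14 without PBS replicate 2, 0.38 without baculovirus replicate 4 and 0.37 without PBS replicate 4.

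**Figure D1:**
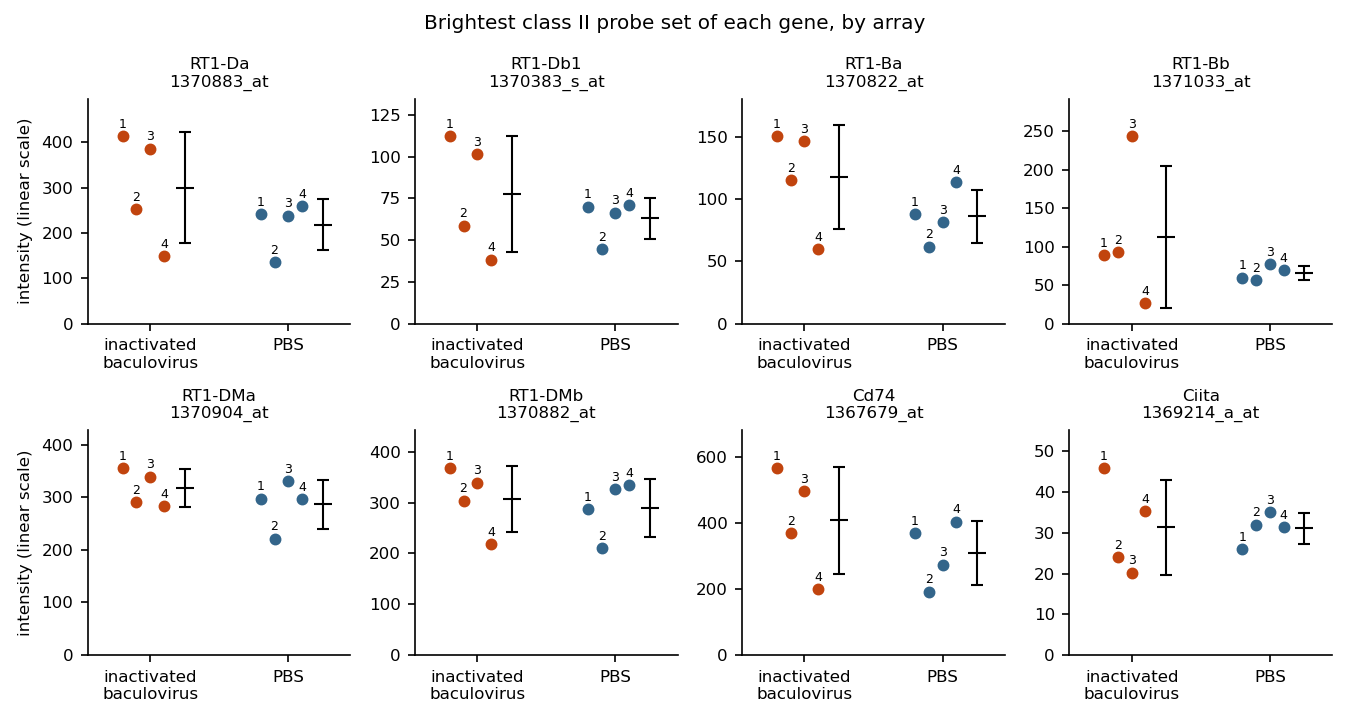
Intensity on a linear scale of the brightest probe set of each of the 8 genes on every array; points are single arrays marked with their replicate number, and the bar beside each group is its mean ± SD (n = 4). The groups overlap in every panel, and baculovirus replicates 1 and 3 are the highest and baculovirus replicate 4 and PBS replicate 2 the lowest arrays for RT1-Da, RT1-Ba and Cd74.

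RT1-Da encodes the alpha chain of the D molecule, the rat counterpart of HLA-DR. Its probe set 1370883_at measured 413, 253, 386 and 148 on baculovirus replicates 1 to 4 and 242, 135, 238 and 259 on PBS replicates 1 to 4. Baculovirus replicates 1 and 3 were above every PBS array, while baculovirus replicate 4 was below 3 of the 4. The means were 300.0 ± 123 and 218 ± 56.5 (SD, n = 4 each), and the log2 difference came to 0.37 in limma (adjusted p = 0.788). Its 95% interval, -0.20 to 0.94, spans folds from 0.872 to 1.92. The difference was 0.17, 0.19 and 0.22 without PBS replicate 2, baculovirus replicate 1 or baculovirus replicate 3, and 0.65 without baculovirus replicate 4.

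RT1-Db1 encodes the beta chain that pairs with RT1-Da. Probe set 1370383_s_at measured 112, 58.7, 102 and 38.3 after baculovirus and 70.0, 44.8, 66.5 and 71.0 after PBS, replicates 1 to 4 in each. As for RT1-Da, baculovirus replicates 1 and 3 were the highest arrays, and baculovirus replicate 4 and PBS replicate 2 were the lowest pair, here with baculovirus replicate 4 at the bottom. Its log2 fold change was 0.18 ± 0.23 (SE, limma adjusted p = 0.894), and it was -0.0025 without baculovirus replicate 1 and 0.41 without baculovirus replicate 4. The other probe set, 1370382_at, comes from the same source sequence, was below the level filter and measured 7.54, 7.26, 31.0 and 6.42 after baculovirus and 4.41, 4.51, 13.8 and 6.51 after PBS. It was highest on replicate 3 in both groups and near the bottom of the intensity scale on the rest, and its log2 fold change fell from 0.26 to 0.0027 without baculovirus replicate 3. The suffix of 1370383_s_at marks probes shared between transcripts, and RT1-Db2 is a paralog, so its signal may not come from RT1-Db1 alone.

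RT1-Ba encodes the alpha chain of the B molecule, the counterpart of HLA-DQ, and 4 probe sets read it. The brightest, 1370822_at, measured 150.3, 115, 146 and 59.7 after baculovirus and 88.0, 61.8, 81.2 and 113 after PBS. Here 3 baculovirus arrays lay above every PBS array and baculovirus replicate 4 below all of them. Its log2 fold change was 0.35 ± 0.22 (SE, limma adjusted p = 0.781). It was 0.22 without baculovirus replicate 1 and 0.60 without baculovirus replicate 4, the ends of its range with 1 array left out, and 0.23 without PBS replicate 2.

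The dim probe set 1381593_x_at was the 1 class II probe set whose groups did not overlap, where 3.86% of all tested had no overlap and 1.55% were higher without overlap. It measured 45.2, 56.3, 47.2 and 52.8 after baculovirus and 30.2, 27.8, 23.6 and 43.4 after PBS, so the gap between the lowest baculovirus and the highest PBS array was small. The means were 50.3 ± 5.10 and 31.2 ± 8.56 (SD, n = 4 each) and the log2 fold change 0.50 (95% interval 0.22 to 0.79), with an unadjusted p of 0.0019 and an adjusted p of 0.690 in limma. The order of the arrays was not that of the brightest probe set: baculovirus replicate 4, lowest there, was above replicates 1 and 3 here. Its suffix marks probes that can cross-hybridise. Probe set 1392334_at, designed from the same source sequence, measured 61.5, 52.8, 45.1 and 44.9 after baculovirus and 27.3, 41.4, 31.1 and 76.4 after PBS. Its highest array was PBS replicate 4, and its log2 fold change was 0.22 ± 0.20 (SE, limma adjusted p = 0.838). That value was 0.083 without PBS replicate 1, 0.12 without PBS replicate 3 and 0.45 without PBS replicate 4.

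The last RT1-Ba probe set, 1377334_at, measured 141, 74.8, 54.9 and 45.4 after baculovirus and 87.1, 27.0, 37.8 and 82.1 after PBS. The log2 fold change was 0.35 ± 0.30 (SE, limma adjusted p = 0.827). Without baculovirus replicate 1 it was 0.077, without PBS replicate 2 0.12 and without PBS replicate 1 0.54. All 4 probe sets of this gene had a higher mean after baculovirus, also with any 1 array left out, and r between any pair of them over the 8 arrays was 0.42 to 0.72.

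RT1-Bb encodes the beta chain of the B molecule, and its 2 probe sets ordered the arrays differently. Probe set 1371033_at measured 88.9, 92.5, 243 and 26.7 after baculovirus and 59.8, 56.6, 77.2 and 69.2 after PBS. Baculovirus held both its highest and its lowest array, and the spread was 92.1 (SD) after baculovirus and 9.38 after PBS. Its log2 fold change was 0.38 ± 0.37 (SE, limma adjusted p = 0.855), -0.049 without baculovirus replicate 3 and 0.82 without baculovirus replicate 4.

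Probe set 1371065_at of the same gene measured 85.0, 13.1, 5.10 and 24.8 after baculovirus and 40.4, 6.31, 9.51 and 39.8 after PBS. In both groups replicates 1 and 4 were high and replicates 2 and 3 low, with no overlap between those numbers. Its log2 fold change was 0.13 ± 0.42 (SE, limma adjusted p = 0.971), and it was -0.32, -0.11 and -0.048 without baculovirus replicate 1, PBS replicate 2 or PBS replicate 3. The 2 probe sets correlated at r = -0.29 over the 8 arrays. Differences between alleles were not tested.

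**Figure D2:**
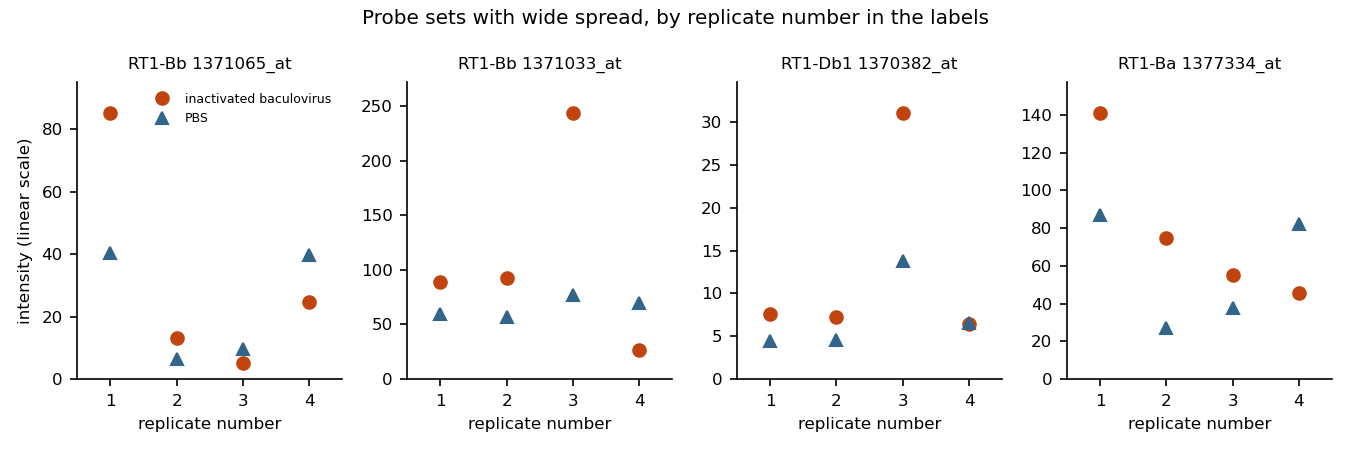
Intensity on a linear scale of 4 class II probe sets against the replicate number in the labels; circles are baculovirus arrays and triangles PBS arrays. RT1-Bb 1371065_at is at 24.8 or above on numbers 1 and 4 and at 13.1 or below on numbers 2 and 3 in both groups, and RT1-Db1 1370382_at is highest on number 3 in both.

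RT1-DMa and RT1-DMb encode the chains of the DM exchange protein, which is less polymorphic than the classical chains. RT1-DMa measured 356, 291, 339.5 and 283 after baculovirus and 298, 221, 331 and 296 after PBS. RT1-DMb measured 368, 303, 339 and 218 after baculovirus and 286, 209.8, 326 and 334 after PBS. PBS replicate 2 was the lowest array of both genes and baculovirus replicate 1 the highest. Log2 fold changes were 0.15 ± 0.12 for RT1-DMa (limma adjusted p = 0.809) and 0.080 ± 0.16 for RT1-DMb (SE, limma adjusted p = 0.937). Without PBS replicate 2 that of RT1-DMa was 0.037, and without baculovirus replicate 1 it was 0.095. That of RT1-DMb was -0.011 without baculovirus replicate 1 and -0.058 without PBS replicate 2. The highest array stood above the lowest by 1.57-fold for RT1-DMa and by 1.70-fold for RT1-DMb, against 2.85-fold for RT1-Da, as ratios of intensity + 16 within each probe set.

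Cd74, the invariant chain, measured 568, 369, 497 and 200.0 after baculovirus and 369, 192, 274 and 404 after PBS. Baculovirus replicates 1 and 3 were again the highest arrays, and baculovirus replicate 4 and PBS replicate 2 stood close together at the bottom. The means were 408 ± 161 and 309.6 ± 96.0 (SD, n = 4 each), and the log2 difference came to 0.34 in limma (95% interval -0.25 to 0.93, adjusted p = 0.818). With 1 array left out it ran from 0.14 without PBS replicate 2 and 0.15 without baculovirus replicate 1 to 0.63 without baculovirus replicate 4. The spread of Cd74 over the 8 arrays (SD 0.55 on the log2 scale) was larger than that of 99.4% of the tested probe sets, and that of RT1-Da (SD 0.53) than that of 99.4% too.

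Ciita, the co-activator, was dim and did not share this order. Probe set 1369214_a_at measured 45.9, 24.0, 20.2 and 35.4 after baculovirus and 26.0, 32.0, 35.1 and 31.4 after PBS. Baculovirus replicate 3, among the highest arrays for Cd74, was the lowest for Ciita. Its log2 difference in limma was -0.021 (95% interval -0.36 to 0.32, adjusted p = 0.990), and it turned to 0.050, 0.097 and 0.020 without baculovirus replicate 2, baculovirus replicate 3 or PBS replicate 3. Probe set 1379381_at was below the level filter, between 16.6 and 29.6 on all arrays, with a mean of 22.3 ± 6.25 after baculovirus and 18.7 ± 1.60 after PBS (SD, n = 4 each). The level filter stood at a mean intensity of 26.4. RT1-Bb 1371065_at at 28.0 and Ciita 1369214_a_at at 31.2 were the members just above it, and Ciita 1379381_at at 20.5 was the nearest below.

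**Figure D3:**
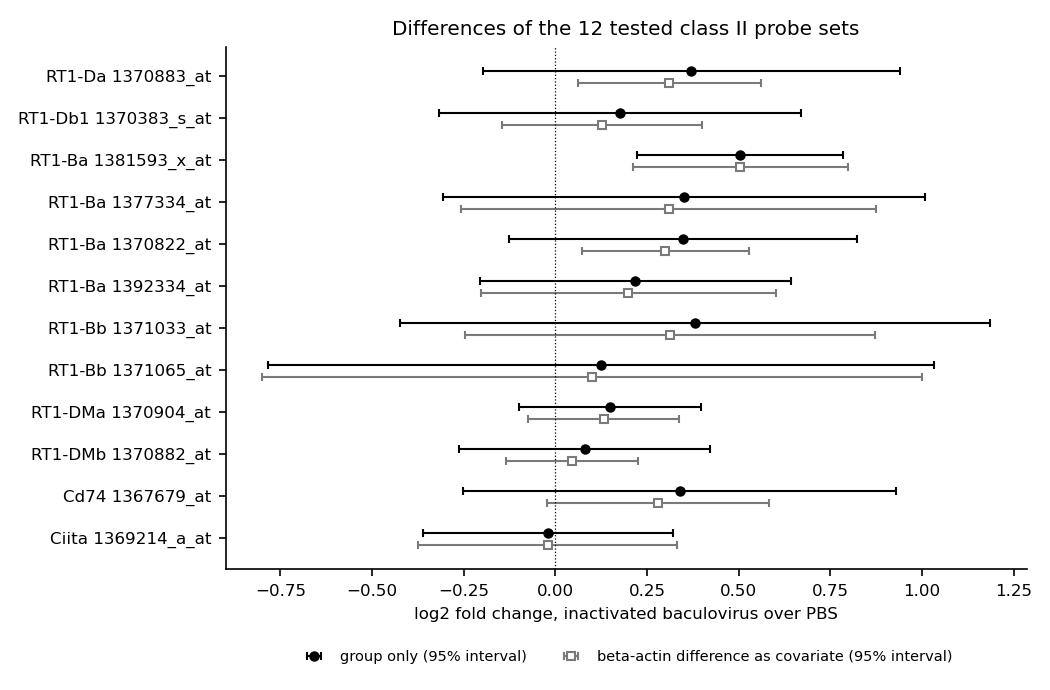
Log2 fold change of baculovirus over PBS for the 12 tested class II probe sets (x axis), with 95% intervals from limma with the group alone (filled circles) and with the beta-actin difference as a covariate (open squares). With the group alone the interval of RT1-Ba 1381593_x_at, 0.22 to 0.79, leaves out 0 and the other 11 include it, and with the covariate those of RT1-Da and RT1-Ba 1370822_at leave it out as well. The covariate was chosen with earlier results of these data known.

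Across the 8 arrays, with the group means left in, several class II probe sets followed one another closely. Cd74 correlated with RT1-Ba 1370822_at at r = 0.97, with RT1-Da at 0.97, with RT1-Db1 1370383_s_at at 0.94 and with RT1-DMb at 0.90. By r to Cd74 these stood at places 5, 6, 31 and 70 among 18624 tested probe sets, whose median r was -0.014 and of which 0.370% were above 0.9. RT1-DMa had r = 0.76 and RT1-Bb 1371033_at r = 0.70. Ciita 1369214_a_at had r = -0.12 to Cd74 and -0.07 to RT1-Da. These correlations share arrays, scaling and, by the design text, some animals, and are given as a description.

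**Figure D4:**
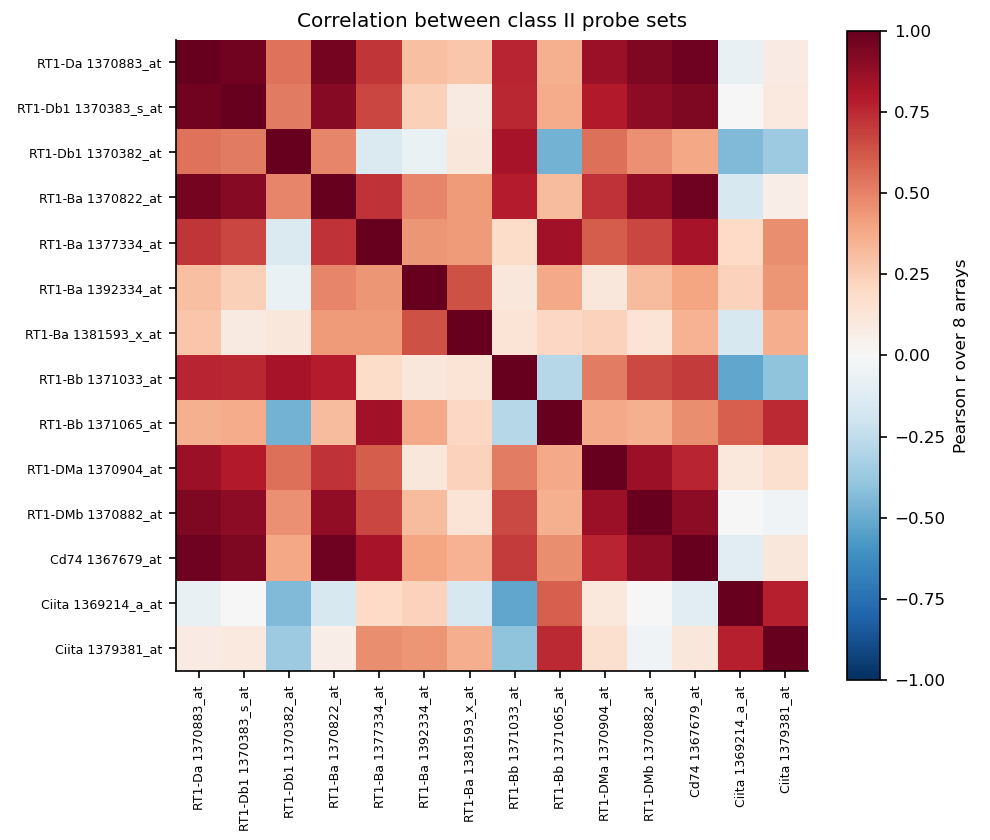
Pearson r over 8 arrays between the 14 class II probe sets, grouped by gene on both axes; red is positive and blue negative. RT1-Da, RT1-Db1 1370383_s_at, RT1-Ba 1370822_at, RT1-DMb and Cd74 are dark red with one another, while both Ciita probe sets are pale with all of these.

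Outside the class II genes, the 8 genes whose pattern over the 8 arrays was most like that of Cd74 by Pearson r, among 10538 genes, were LOC100910973, Fxyd5, Ifi27l2b, Psmb9, Irgm, Mx2, Ms4a6bl1 and Ifitm3, with r from 0.989 to 0.964. Their log2 fold changes ran from 0.22 for Fxyd5 to 0.74 for Mx2. For RT1-Da the 8 most alike were Fcgr2b, Timp1, Clec4a3, Psme1, Plac8, Stat2, Fxyd5 and Ms4a6bl1, with r from 0.988 to 0.957 and log2 fold changes from 0.16 for Fcgr2b to 0.39 for Ms4a6bl1. Fxyd5 and Ms4a6bl1 were in both lists.

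The shared order of the arrays moved with a measure of RNA quality and labelling, how far the 3′ control probe set of beta-actin stood above its 5′ one in log2, a gap that grows as RNA is shorter. It was 0.36, 0.51, 0.40 and 0.72 on baculovirus replicates 1 to 4 and 0.57, 0.62, 0.46 and 0.41 on PBS replicates 1 to 4. The groups did not separate in it (0.499 ± 0.161 and 0.515 ± 0.0984, SD, n = 4 each, exact two-sided permutation p = 0.886). All 12 tested class II probe sets had r below 0 with it, as did 50.1% of all 18625. An earlier reading of these data had found the class II level to follow this measure, so the relation is no independent support. RT1-DMb had the strongest relation, with r = -0.945 (two-sided exact permutation p = 0.000347), and its rank correlation rho was -0.976 (exact p = 0.000397). For RT1-Da r was -0.893 (exact p = 0.00223) and the rank correlation -0.905 (exact p = 0.00456). For Cd74 r was -0.861 (exact p = 0.00719) with the same rank correlation as RT1-Da.

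Adjusted by Benjamini-Hochberg over the 18625 probe sets for which r was computed, none of these passed. The adjusted exact permutation p of r was 0.287 for RT1-DMb, 0.442 for RT1-Da and 0.581 for Cd74, and those of rho were 0.336, 0.503 and 0.503. In all, 0.00% of the tested probe sets passed. The same difference of GAPDH ran from -0.106 on baculovirus replicate 1 to -0.0360 on PBS replicate 1, so its 3′ probe set read below its 5′ one on every array. It gave r of smaller size, -0.700 for RT1-DMb, -0.727 for RT1-Da and -0.615 for Cd74. With baculovirus replicate 4 and PBS replicate 2 left out, whose differences lay farthest from the median, r came to -0.980 for RT1-DMb, -0.751 for RT1-Da and -0.612 for Cd74. Taken as deviations from the group means, r was -0.947, -0.936 and -0.890 for these genes. Ciita 1369214_a_at (r = -0.016) and RT1-Ba 1381593_x_at (r = -0.058) had values near 0, and r of the latter within groups was 0.00085.

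**Figure D5:**
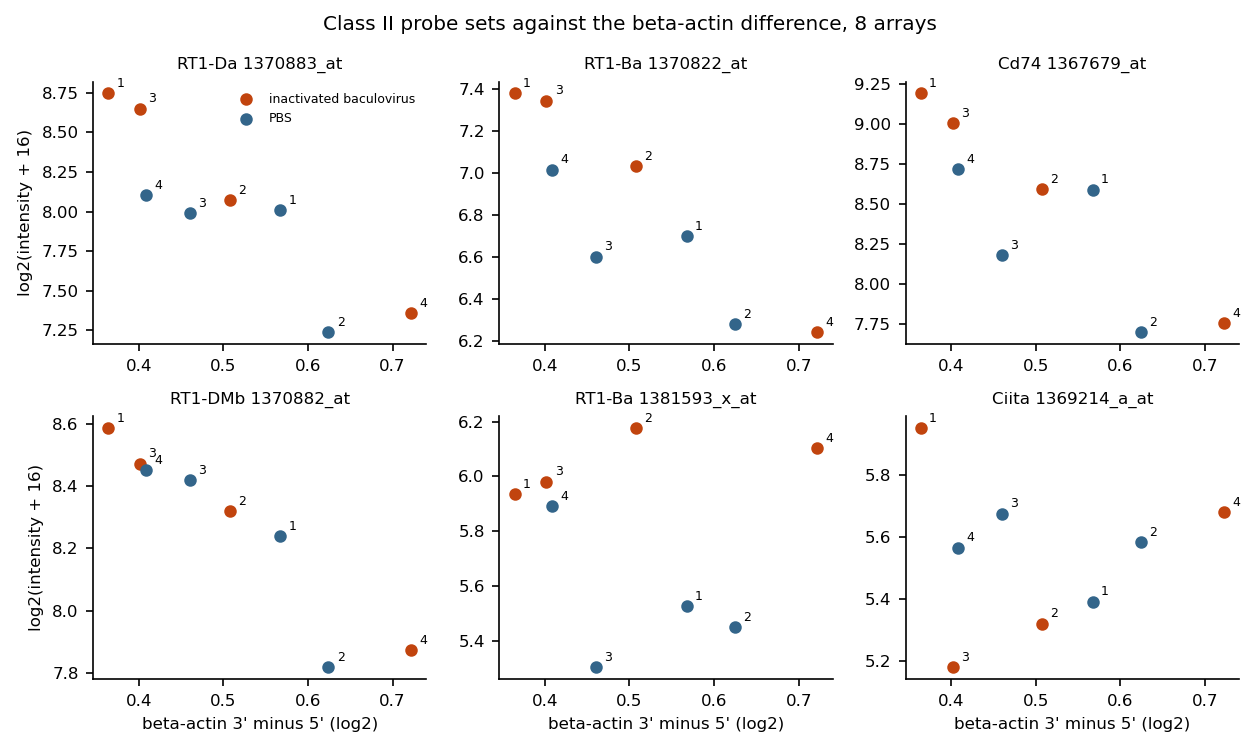
Level on the scale log2(intensity + 16) of 6 class II probe sets (y axis) against the beta-actin 3′ minus 5′ log2 difference (x axis) on the 8 arrays, marked by group and replicate number. RT1-Da, RT1-Ba 1370822_at, Cd74 and RT1-DMb tend downward from left to right in both groups, while RT1-Ba 1381593_x_at and Ciita have r near 0.

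With the beta-actin difference as a covariate, the standard error of the group difference shrank from 0.26 to 0.12 for RT1-Da, from 0.22 to 0.11 for RT1-Ba 1370822_at and from 0.27 to 0.14 for Cd74, while the median over all tested probe sets stayed at 0.107. The log2 fold changes were then 0.31 (95% interval 0.062 to 0.56) for RT1-Da, 0.30 (0.072 to 0.53) for RT1-Ba 1370822_at and 0.28 (-0.024 to 0.58) for Cd74. RT1-Ba 1381593_x_at stayed at 0.50 ± 0.14 (SE). None passed over all probe sets, with limma adjusted p of 0.635, 0.619, 0.697 and 0.604, and 0 probe sets passed anywhere on the array. The covariate was chosen with its relation to class II already known from these data. Whether the quality of the RNA sets the class II signal or moves with the tissue sampled was not tested.

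The proteins that bind the X and Y boxes, and the interferon gamma relay that switches Ciita on, showed no called member. Of 13 listed regulators 11 were tested, with 6 higher and 5 lower means, 0 passing in either direction in limma and 0 at an unadjusted p under 0.05. Their median log2 fold change was 0.029, against 0.011 for all tested probe sets. Rfx5, a subunit of the X box complex, had the smallest p, at 157 ± 20.4 after baculovirus and 181 ± 15.9 after PBS (SD, n = 4 each), a log2 fold change of -0.19 ± 0.10 (SE, limma adjusted p = 0.754). Nfyb, a subunit of the Y box factor, stood at -0.11 ± 0.10 (SE), and Irf1, a factor that acts on a Ciita promoter, at 0.13 ± 0.14.

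Antigen processing genes, the proteases and partners that trim the invariant chain and cut antigen, had 4 of 9 higher and 5 lower means, 0 passing in either direction, and a median of -0.0043. The count of higher means turned to 0 of 9 without PBS replicate 2 and to 9 of 9 without PBS replicate 3. It was 7 without baculovirus replicate 4, with quantile normalization and with limma array weights. Cathepsin S (Ctss), the protease that completes the breakdown of the invariant chain, measured 912 ± 40.2 and 912 ± 82.8 (SD, n = 4 each) and lay between 809 and 1007 on all arrays. Ctsc, an exopeptidase, stood at 0.15 ± 0.33 (SE) and Ctsd, an aspartic protease, at 0.055 ± 0.085. Of the genes of surface turnover and costimulation, 3 of 6 were tested, with 1 higher and 2 lower. The higher ones numbered 0 without PBS replicate 3. They numbered 2 without baculovirus replicate 3, baculovirus replicate 4 or PBS replicate 4, and with limma array weights. The costimulatory genes Cd80, Cd86 and Cd40 were below the level filter, with means of 1.16, 25.2 and 6.98 after baculovirus and 1.21, 21.7 and 8.98 after PBS.

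Cells that could carry class II were read through marker lists. Of 12 microglia markers tested, 10 had a higher and 2 a lower mean, with 0 passing in limma, 1 at an unadjusted p under 0.05 and a median log2 fold change of 0.13. Of all tested probe sets 53.7% had a higher mean, and 6.72% had an unadjusted p under 0.05 in limma. The count of microglia markers with a higher mean ran from 7 to 11 with 1 array left out. The smallest p belonged to Cx3cr1, the fractalkine receptor, at 0.23 ± 0.11, followed by P2ry12, a receptor of resting microglia, at -0.26 ± 0.13, and Tyrobp, a signalling adaptor, at 0.22 ± 0.14 (log2 fold change ± SE). The mean centred level of the list ran from -0.18 to 0.27 after baculovirus and from -0.31 to 0.24 after PBS, lowest on baculovirus replicate 4 and PBS replicate 2, as for Cd74. Unlike for Cd74, PBS replicate 3 (0.24) stood above baculovirus replicate 3 (0.17). Of the border macrophage markers tested, 4 of 4 were higher, 0 passing, with levels from -0.058 to 0.24 after baculovirus and from -0.29 to 0.046 after PBS. The count was 3 to 4 with 1 array left out. Mrc1, Lyve1 and Pf4 were dim, with means of 31.6, 31.1 and 37.0 after baculovirus and 30.0, 25.8 and 31.3 after PBS. Cd163, also listed, was below the level filter and went the other way, at 3.23 after baculovirus and 4.27 after PBS. In bulk tissue fewer cells of a type and less RNA per cell cannot be told apart, and the part of these cells in the class II levels was not tested.

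Markers of professional antigen-presenting and lymphoid cells were mostly below the level filter, with Cd83 and Cd4 as the exceptions. Cd83, an activation marker of dendritic cells and the 1 of 5 dendritic markers on the array above the filter, measured 207 ± 25.5 after baculovirus and 224 ± 33.9 after PBS (SD, n = 4 each), a log2 fold change of -0.097 ± 0.11 (SE). Flt3, Clec9a, Itgax and Batf3 measured 5.07, 1.89, 15.2 and 9.86 after baculovirus and 9.20, 1.46, 10.6 and 8.91 after PBS. The B cell markers Ms4a1 and Cd79b were both below the filter, Ms4a1 between 13.9 and 28.0 and Cd79b between 1.31 and 3.95 on all arrays. Of 7 T cell markers only Cd4, which rat macrophages also carry, was above it, at 0.24 ± 0.13 (SE), and Cd3e measured 14.4 ± 4.10 and 10.7 ± 4.19 (SD, n = 4 each). Cd3g measured 19.1 ± 9.03 after baculovirus and 10.4 ± 6.04 after PBS, and Cd8a 19.9 ± 8.33 and 11.6 ± 6.12 (SD, n = 4 each). Each of the 7 had a higher mean after baculovirus, as had 56.1% of all probe sets other than controls.

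Striatal genes, the check of the labelled tissue, were bright on all arrays: Ppp1r1b lay between 976 and 1393 and Penk between 1314 and 1742. Of 7 striatal markers tested 2 had a higher and 5 a lower mean, with 0 passing. The count of higher means was 0 without baculovirus replicate 4, 1 without PBS replicate 1 or PBS replicate 3, and 4 without baculovirus replicate 1 or PBS replicate 4. Choroid plexus RNA was uneven, as Ttr was at 47.7 on PBS replicate 4, its lowest array, and at most 1968 elsewhere. The mean centred level of the choroid list was -1.77 on PBS replicate 4. It was 0.073 to 0.28 on the other PBS arrays and 0.11 to 0.52 after baculovirus. The choroid list had 3 of 3 higher means with 0 passing, where 53.7% of all tested probe sets were higher. Its count was 2 to 3 with 1 array left out. Without PBS replicate 4 the log2 fold change of Cd74 was 0.48 and that of RT1-Da 0.46.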

How the data were processed

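Brain RNA of 8 samples was read on expression arrays, 4 per group. The authors deposited linear intensities, one per probe set and array. The submitters' processing notes name GCOS and GCRMA, and the sources used here do not say which of them made these intensities. Each array had been scaled: with 2% trimmed at each end the mean was 100.0 on all arrays. Labelled RNA was made with either of 2 kits, and the sources used here do not say which array had which.

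Control probe sets (57) were left out. Names came from the platform annotation (1 symbol for 20826 probe sets, several for 436, none for 9780), checked against a RefSeq table, which changed 0. Values were analysed as log2(intensity + 16). Array medians spanned 0.111, below the limit of 0.2 set for leaving them as deposited. Probe sets whose mean intensity over the 8 arrays exceeded the 40th percentile were tested with limma 3.58.1 in R 4.3.3 (lmFit, eBayes with trend, two-sided, no block) and Benjamini-Hochberg adjustment over all 18625, threshold 0.05. Related genes were read by their brightest single-symbol probe set. Named are all members, up to 3 genes of smallest p per list with further list members for its range, and the 8 genes most like Cd74 and RT1-Da. Listed genes without a tested single-symbol probe set are given by level only or not described. The scripts were tested on simulated data. Members, lists and the beta-actin measure were chosen with earlier results of these data known. The number of arrays limits the precision. Alternatives are given in the closing section.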

Additional observations from a re-analysis of the deposited data

Results flagged for a closer look

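RT1-Db1 1370382_at, the dim probe set below the level filter, measured 31.0 on baculovirus replicate 3, while the other 3 baculovirus arrays lay between 6.42 and 7.54. That array stood apart from its group by more than the 95% critical value of Dixon's test (gap over range 0.954). Chance gives about 1 in 20 groups such a value, and 28 groups were looked at. PBS replicate 3, at 13.8, was the highest PBS array of the same probe set.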

How the results depend on the processing

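In 18 alternative fits (each array left out, the replicate block, the beta-actin covariate, array weights, a fit without variance trend, a filter at the 60th percentile or none, quantile or median scaling, and pseudocounts of 1 and 64) 0 probe sets passed over the array, and so 0 members and 0 related genes. The methods' t-test gave 0 with at least 2-fold and 0 after Benjamini-Hochberg. The lowest adjusted p of a member was 0.332 (limma, RT1-Ba 1381593_x_at without PBS replicate 4). Higher means were found for 13 of 14 members in every fit with all arrays, and for 10 to 14 with 1 array left out. Their median log2 fold change was 0.33 and 0.13 with pseudocounts of 1 and 64. No log2 fold change of a member reversed with all arrays. With 1 array left out the ranges of those that did were -0.0025 to 0.41 for RT1-Db1 1370383_s_at, -0.058 to 0.23 for RT1-DMb, -0.049 to 0.82 for RT1-Bb 1371033_at, -0.32 to 0.43 for RT1-Bb 1371065_at and -0.16 to 0.097 for Ciita 1369214_a_at. The cause was not tested.

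For r with the beta-actin difference, 0 members passed in every alternative. The smallest exact permutation p that the arrays allow leaves little room to pass, and less with 1 array left out, so this count is a weak check. With the GAPDH difference in place of the beta-actin one, r was -0.700 for RT1-DMb (exact permutation p = 0.0574), -0.727 for RT1-Da (exact permutation p = 0.0398) and -0.615 for Cd74 (exact permutation p = 0.113), with adjusted values of 0.987. Values near 0 reversed: Ciita 1369214_a_at to 0.0094 with a pseudocount of 1, 0.073 with quantile normalization and 0.060 with median centring, and RT1-Ba 1381593_x_at to 0.019 with quantile normalization. With 1 array left out r ran from -0.301 to 0.466 for Ciita 1369214_a_at, -0.476 to 0.129 for RT1-Bb 1371065_at and -0.498 to 0.129 for RT1-Ba 1381593_x_at, and from -0.925 to -0.812 for Cd74.

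Same-numbered arrays did not deviate together over all tested probe sets (r from -0.0031 to 0.020), and no label pairs them, so the main fit took no pairs. That r does not settle whether same-numbered arrays share an animal. Among the 200 probe sets most variable within groups r was 0.41, 0.071, 0.32 and 0.26 for numbers 1 to 4, and each array correlated best with its own number, a hint from the data. With the replicate block 0 probe sets passed and 13 of 14 members had a higher mean (median 0.24), with member adjusted p from 0.789 to 0.993 in limma. The standard error of RT1-Bb 1371065_at was 0.20 with the block and 0.42 without.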
